A study of Mus musculus with 8 samples.

Results

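The cycling carcinoma cells of the medium tumor are the cell barcodes that carried both cell division transcripts and epithelial transcripts. A barcode was taken when at least 1 UMI (unique molecular identifier, a captured mRNA molecule) was counted for 6 or more of the 10 genes Ube2c, Birc5, Cenpf, Top2a, Rrm2, Cenpa, Cdk1, Ccna2, Cdc20 and Ccnb1, and for 4 or more of the 11 epithelial markers Cdh1, Cldn3, Cldn4, Cldn7, Elf3, Krt7, Krt8, Krt18, Muc1, Spint2 and Tspan8. This rule found 193 cells among the 2812 barcodes of the medium tumor, out of 4345 barcodes in the series. They made up 6.86% of that tumor's cells (exact 95% binomial interval 5.96% to 7.86%) and 8.0% (6.95% to 9.16%) of its 2411 cells with 4 or more epithelial markers, here called carcinoma cells. The name is given by markers alone, since an epithelial cell that is not malignant would pass the same rule. The tumors came from untreated KPC mice, which carry Cre-dependent alleles, among them 1 of Trp53 (R172H), and Pdx-1-Cre, a recombinase driven by a promoter of the pancreatic lineage, and which develop pancreatic ductal adenocarcinoma. One tumor of medium size and one of large size were dissociated with an enzyme kit and captured as single cells on the 10x Genomics 3′ platform (v2 chemistry). The labels give neither age nor sex, and the 4 technical replicates that they name for a tumor share 1 count table. Each tumor is therefore 1 sample, cells are not replicates, and no test or p-value was computed. Intervals in parentheses are exact 95% intervals, which account for counting error and nothing else.

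A dividing cell passes through a growth phase, DNA synthesis (S phase), a gap and mitosis, and the genes for each step are switched on in turn. Genes of DNA replication are controlled by E2F transcription factors at the entry into S phase, and genes of mitosis by the DREAM and MuvB-FOXM1 complexes, which bind a short promoter element called CHR. Inhibitors of the cyclin-dependent kinases, several of them targets of p53, hold cells out of the cycle, and the KPC alleles alter p53 itself.

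The cycling carcinoma cells were deeper than the other carcinoma cells at the median, with ranges that overlap. They held 2696194 UMIs, 13.3% of all UMIs of the medium tumor, with a median of 11752 UMIs per cell (lowest 2987, highest 47440) and a median of 3285 detected genes. The other 2218 carcinoma cells had a median of 5761.5 UMIs (2711 to 37988) and 2088 detected genes. No cell was removed as a doublet, because Scrublet, a caller that builds artificial doublets for comparison, marked 0 of 2812 cells, and a caller that marks no cell is no check. The median Scrublet score was 0.0492 in the cycling cells and 0.0423 in the other carcinoma cells, and 12 (6.22%) and 100 (4.51%) of them were among the 115 of 2812 cells (4.09%) above the cut set for the highest 5% of scores. The medium and large tables shared 5 barcodes. Where a count of 0 is given for the cycling cells, the limit used is 3 UMIs, a level of 1.11 CPM, and the upper end of the exact interval is 1.37 CPM.

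The 10 genes of the rule were each seen in 64.8% to 93.8% of the cycling carcinoma cells. Values are given as CPM, the UMIs of a gene among 1000000 UMIs of the summed group. As these genes chose the cells, their values describe the rule and support nothing else. Ube2c, the ubiquitin-conjugating enzyme of the anaphase-promoting complex, was at 342 CPM (320 to 364), with a median of 2 UMIs per cell and up to 53 in 1 cell, against 11.1 CPM in the other carcinoma cells. Birc5, the survivin subunit of the chromosomal passenger complex, was at 310 CPM (290 to 332) and seen in 181 of the 193 cells. Cenpa, the histone that marks centromeres, was at 267 CPM (248 to 288) and seen in 170 cells. Among the others, Rrm2 (a subunit of ribonucleotide reductase) was at 231 CPM, Cenpf (a kinetochore protein) at 205 CPM, Top2a (topoisomerase) at 197 CPM, Cdk1 (the mitotic kinase) at 189 CPM and Cdc20 (an activator of the anaphase-promoting complex) at 165 CPM. The cyclin genes Ccnb1 and Ccna2 were lowest, at 120 CPM and 118 CPM. In GRCm38 Ube2c lies on chromosome 2 from 164769898 to 164778822, Top2a on chromosome 11 from 98992943 to 99024189 and Cdk1 on chromosome 10 from 69335146 to 69352938, all protein-coding genes.

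Carcinoma cells did not fall into separate groups by the number of rule genes they carried. Of the 2411 carcinoma cells, 1457 carried none of the 10 and 451 carried 1. The number of cells then fell to 48 with 4 rule genes, 61 with 5, 46 with 6 and 30 with all 10. The 61 cells just outside the rule, with 5 genes, held the 10 genes at 930 CPM in sum, and the 46 cells just inside, with 6 genes, at 1320 CPM. Their median depths were 9236 and 7781.5 UMIs, so the boundary runs through a continuous range.

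**Figure D1:**
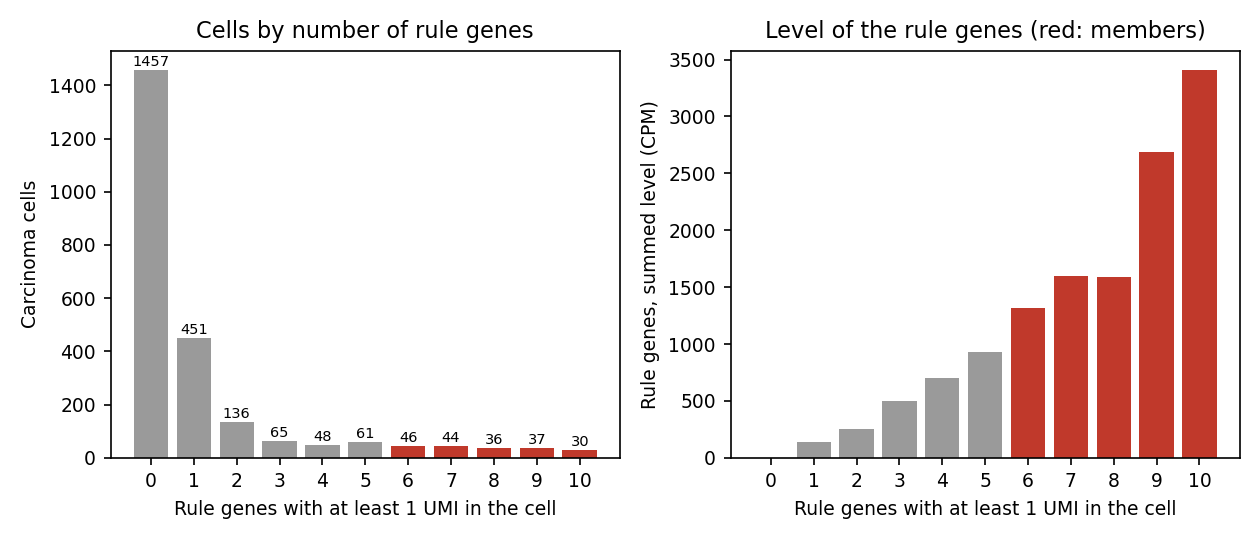
Left, the number of carcinoma cells of the medium tumor by how many of the 10 rule genes had at least 1 UMI. Right, the summed level of the 10 genes in the same cells (CPM). Bars in red, from 6 genes upward, are the 193 cycling carcinoma cells, and the level passes from 930 CPM at 5 genes to 1320 CPM at 6 without a gap in the number of cells.

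The 11 epithelial markers also chose the cells, so their presence describes the rule, and a few of them were low. Krt18 and Krt8, the keratin pair of simple epithelia, were each seen in 99.5% of the cells, at 3973 CPM and 2676 CPM. Cells with 8 or 9 of the 11 markers were the most common, 51 and 55 of the 193. Cldn3 and Cldn4, tight junction claudins, were at 77.1 CPM and 27.1 CPM in the cycling cells against 234 CPM and 106 CPM in the other carcinoma cells, ratios of 0.329 (0.285 to 0.378) and 0.255 (0.199 to 0.322). The other 9 markers stayed within 2-fold. Markers of other cell types were at low levels in the cycling carcinoma cells. The 11 macrophage markers summed to 404 CPM, below the 720 CPM of the other carcinoma cells and the 32226 CPM of the 224 macrophage-marker cells, which have 4 or more macrophage markers, do not meet the epithelial rule and carry fewer than 6 rule genes. At least 4 macrophage markers were seen in 35 of the 193 cycling cells (18.1%) and in 10.7% of the other carcinoma cells, but after each cell was thinned to 2500 UMIs at least 3 were seen in 4.15% and 7.62%. The T cell markers Cd3e and Cd2, the B cell marker Cd79a, the acinar markers Cpa1, Cpb1 and Prss2 and all 5 endocrine markers were at 0 UMIs. The other acinar markers were not: Cela1 had 144 UMIs in 77 of the 193 cells and Ctrb1 had 12 UMIs in 7.

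The rule found more cells at greater depth. Among carcinoma cells in the lowest quartile of UMIs, 6 of 603 (0.995%, 0.366% to 2.15%) were cycling, and among those in the highest quartile, 126 of 603 (20.9%, 17.7% to 24.4%). After thinning of each cell at random to 2500 UMIs, a depth that all cells reached, the rule found 35 of 2271 carcinoma cells (1.54%, 1.08% to 2.14%), all of them members on the deposited counts. At this depth the 193 cells carried a median of 4 rule genes and the other carcinoma cells a median of 0. A looser call, 3 or more rule genes after thinning, gave 177 carcinoma cells, of which 133 (75.1%) were members. The share of cells with this call still differed by their original depth, 2.90% in the lowest quartile (1.70% to 4.6%), 5.63% and 7.59% in the middle quartiles and 15.3% (12.4% to 18.5%) in the highest. In the cells that met the rule after thinning, the median of the deposited UMIs was 9515, which is 1.61 times that of the other carcinoma cells. On the deposited counts the ratio of the medians was 2.04. More mRNA per cell and deeper capture of these cells cannot be told apart.

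The levels of all genes were compared between the 193 cycling and the 2218 other carcinoma cells, to describe what went with the rule genes. Among 9370 genes with at least 100 UMIs over these cells, 298 (3.18%) were at least 2-fold higher in the cycling cells and 638 (6.81%) at least 2-fold lower, with 1 UMI added to each sum. Of 253 genes in 10 lists of the cell cycle, which leave out the rule genes, 180 were tested, 125 were higher, 0 were lower and the median log2 ratio was 1.58, against -0.11 for all genes tested. A gene that is rare outside cycling cells can pass the filter only through them. Among the 134 list genes that would pass on the other carcinoma cells alone, 79 were higher, with a median of 1.23 on the log2 scale, against 214 of 8979 for all genes that pass in this way. The 298 higher genes comprised these 125, the 10 rule genes, 157 genes in no list and 6 genes of other lists, which are Cdkn2c, Cdkn2d, Nolc1, Rrp9, Nop58 and Muc5ac. The mucin gene Muc5ac had 37 UMIs in 12 of the 193 cells, and 5 cells held 81.1% of them. At 4-fold, 89 genes were higher, of which 63 were in the cell cycle lists and 10 were rule genes. Several lists share a complex or a pathway and their genes are not independent, and the cells were chosen on genes that are regulated with many of them.

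**Figure D2:**
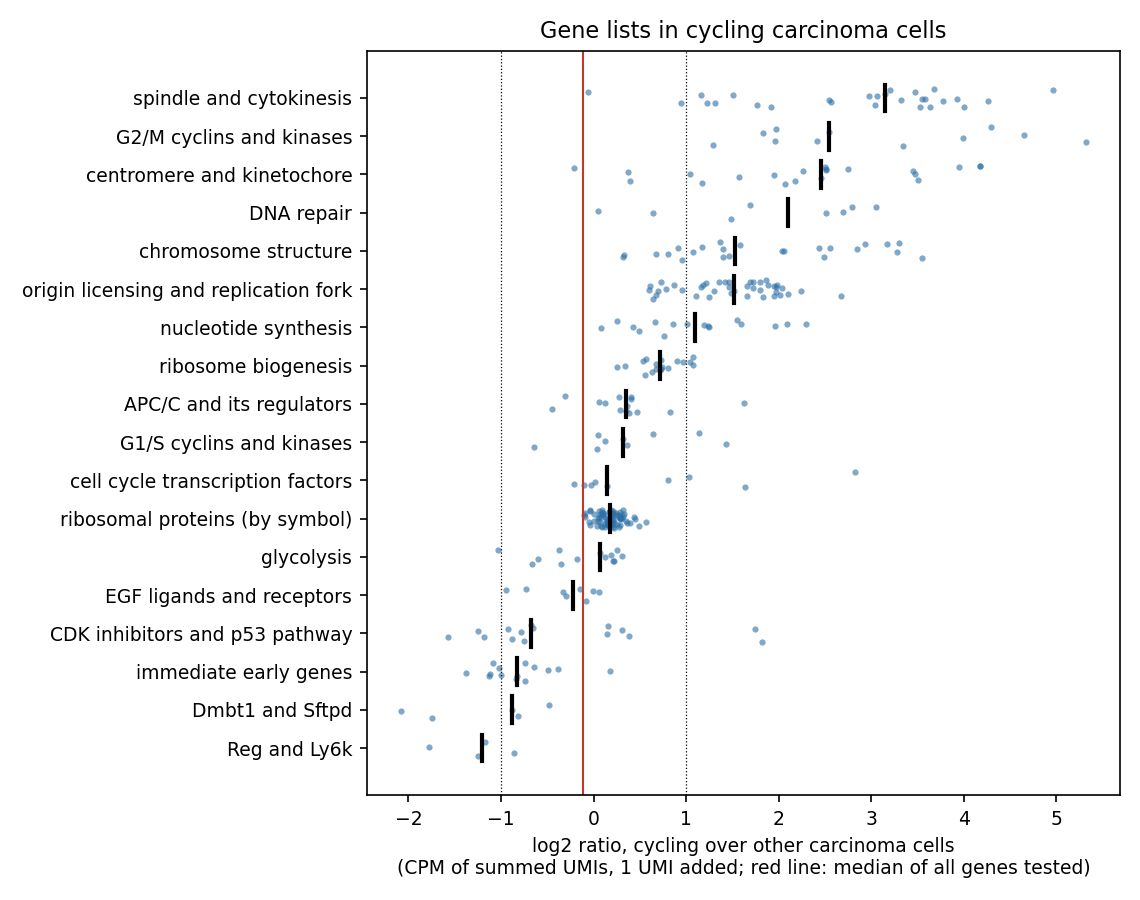
The log2 ratio of the level in cycling over other carcinoma cells for every tested gene of 18 lists (points), with the list medians (black bars), the 2-fold limits (dotted) and the median of all genes tested (red line, -0.11). The median is 3.15 for the spindle and cytokinesis list, but 1.77 on its 13 genes that would pass the filter on the other carcinoma cells alone, and the immediate early genes, the Dmbt1 and Sftpd list and the Reg and Ly6k list lie below the red line.

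Kinases and cyclins of the entry into mitosis were higher where they could be tested. All 11 tested genes of the 19 listed were at least 2-fold higher, with a median log2 ratio of 2.55, but the other 8 had too few UMIs and only 3 of the 11 would pass the filter on the other carcinoma cells alone (median 1.98). Aurka, the Aurora A kinase that matures spindle poles, had 140 UMIs in 85 of the cycling cells (0 to 4 per cell) and 20 UMIs in 19 of the other carcinoma cells. Its level was 51.9 CPM (43.7 to 61.3) against 1.25 CPM (0.764 to 1.93), a ratio of 41.5 (25.9 to 70.0), the highest ratio of any tested gene. In the highest quartile of UMIs its ratio was 31.9 (16.7 to 68.4), and that of the rule gene Ube2c was 32.5. In cells with at most 1 rule gene Aurka was at 0.785 CPM, and in the 224 macrophage-marker cells at 4.80 CPM, on 4 UMIs. Plk1, a kinase of centrosomes and kinetochores, was at 37.5 CPM against 1.44 CPM (ratio 26.0, 16.4 to 42.9). Aurkb, the Aurora B kinase that partners with Birc5, was 20.1-fold higher (12.8 to 32.4), and Pbk, a mitotic kinase, 16.1-fold (12.6 to 20.6). The smallest ratios of the list were those of Pkmyt1, which restrains Cdk1 (2.40, 1.54 to 3.66), and Cdc25b, a phosphatase that activates it (3.54, 2.49 to 5.0).

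The machinery of the spindle and of the kinetochore, the structure by which chromosomes attach to it, followed. Of 27 tested spindle and cytokinesis genes, 25 were higher, with a median log2 ratio of 3.15. Only 13 of them would pass the filter on the other carcinoma cells alone, and 11 of these were higher (median 1.77). Nusap1, which binds spindle microtubules, had 226 UMIs in 60.1% of the cycling cells and 42 UMIs in 1.71% of the other carcinoma cells, a ratio of 31.9 (22.9 to 45.5). Hmmr, a microtubule protein of spindle poles, was 19.5-fold higher (13.9 to 27.9), Prc1, which bundles the midzone of the spindle, 16.1-fold (12.9 to 20.1), and Ckap2l, a spindle pole protein, 15.3-fold (11.4 to 20.7). Only Numa1 (0.95, 0.757 to 1.18) and Tuba1c (1.92, 1.75 to 2.10) stayed under 2-fold. Of 21 tested centromere and kinetochore genes, 18 were higher, with a median of 2.46. On the other carcinoma cells alone 13 would pass the filter, of which 10 were higher (median 1.95). Spc25, of the Ndc80 complex, was 18.3-fold higher (13 to 26.2), Cenpe, a kinetochore motor, 18.2-fold (14.2 to 23.6), Ska1 15.7-fold (10.1 to 25) and Sgol1, the guardian of centromere cohesion, 11.5-fold (7.61 to 17.7). Zwint was at 62.3 CPM in the cycling cells and 72.8 CPM in the others, a ratio of 0.856 (0.724 to 1.01), and Mis12 had a ratio of 1.26 (0.825 to 1.86). Of the 39 spindle and 34 centromere genes listed, 12 and 13 had too few UMIs to be tested.

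Genes that build mitotic chromosomes were higher too, 18 of 24 tested with a median of 1.53. Of the 21 that would pass the filter on the other carcinoma cells alone, 15 were higher (median 1.40). Mki67, the antigen Ki-67 that coats mitotic chromosomes and is the usual stain for dividing cells, was not a rule gene. It had 268 UMIs in 64.2% of the cycling cells (median 1, up to 8 per cell) and 135 UMIs in 5.09% of the other carcinoma cells, which is 99.4 CPM (87.9 to 112) beside 8.45 CPM (7.08 to 10.0) and gives a ratio of 11.8 (9.53 to 14.6). It was seen in 11.6% of the 224 macrophage-marker cells, from which cells with 6 or more rule genes are left out, so a UMI of Mki67 was not confined to carcinoma cells. Esco2, which sets up cohesion of sister chromatids, was 9.92-fold higher, Cdca3, an activator of mitotic entry, 9.71-fold and Cdca2 9.11-fold. Hmgb2 and the histone variant H2afz, chosen after their values were seen, gave most UMIs of this list, with 2475 and 7155 in the cycling cells and ratios of 7.61 (7.17 to 8.09) and 3.00 (2.91 to 3.08).

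Promoters of these genes are shown because they carry the short elements that are known to time mitotic and replication genes. The sequences are RefSeq promoters of GRCm38.p6, from 250 bases before to 50 bases after the start, read on the strand of the gene. Capitals mark a CHR element, spelled TTTGAA, or an E2F element, both searched on either strand. The E2F element was searched in the spelling TTCCCGC, in the spelling TTCGCGC, in the spelling TTGCCGC and also in the spelling TTGGCGC. The promoters are those of Aurka (chr2:172370521-172370820, minus strand), Plk1 (chr7:122159185-122159484, plus), Hmmr (chr11:40733388-40733687, minus), Prc1 (chr7:80294201-80294500, plus), Asf1b (chr8:83955444-83955743, plus) and Uhrf1 (chr17:56303087-56303386, plus). They belong to the genes with the largest ratios that held an element in the mitotic kinase, spindle and replication lists, 2 from each.
Aurka: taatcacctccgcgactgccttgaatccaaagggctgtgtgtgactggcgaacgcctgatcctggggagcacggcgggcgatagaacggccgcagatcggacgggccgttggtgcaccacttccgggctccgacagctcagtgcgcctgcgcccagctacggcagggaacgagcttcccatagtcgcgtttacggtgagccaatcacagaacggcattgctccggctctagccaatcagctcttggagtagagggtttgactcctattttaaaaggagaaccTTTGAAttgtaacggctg
Plk1: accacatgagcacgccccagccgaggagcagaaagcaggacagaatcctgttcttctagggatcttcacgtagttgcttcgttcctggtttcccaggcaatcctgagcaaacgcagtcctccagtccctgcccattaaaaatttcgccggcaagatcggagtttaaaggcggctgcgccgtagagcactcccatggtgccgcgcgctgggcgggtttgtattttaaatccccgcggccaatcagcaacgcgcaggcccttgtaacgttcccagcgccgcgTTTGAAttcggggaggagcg
Hmmr: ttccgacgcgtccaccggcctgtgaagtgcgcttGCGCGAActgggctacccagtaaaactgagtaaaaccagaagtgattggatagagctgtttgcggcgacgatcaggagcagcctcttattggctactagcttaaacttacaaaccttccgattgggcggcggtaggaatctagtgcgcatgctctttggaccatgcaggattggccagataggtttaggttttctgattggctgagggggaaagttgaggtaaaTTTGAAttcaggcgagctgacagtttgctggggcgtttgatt
Prc1: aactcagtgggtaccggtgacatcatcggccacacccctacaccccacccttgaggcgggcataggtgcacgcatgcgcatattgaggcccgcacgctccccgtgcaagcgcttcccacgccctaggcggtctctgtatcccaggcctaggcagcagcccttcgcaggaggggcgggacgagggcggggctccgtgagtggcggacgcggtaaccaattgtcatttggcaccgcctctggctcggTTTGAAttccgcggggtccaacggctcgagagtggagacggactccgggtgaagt
Asf1b: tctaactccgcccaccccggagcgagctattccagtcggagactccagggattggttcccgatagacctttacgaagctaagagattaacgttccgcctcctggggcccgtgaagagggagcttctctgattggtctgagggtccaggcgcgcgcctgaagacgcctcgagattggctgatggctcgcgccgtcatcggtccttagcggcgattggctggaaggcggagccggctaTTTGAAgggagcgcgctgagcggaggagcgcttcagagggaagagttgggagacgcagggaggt
Uhrf1: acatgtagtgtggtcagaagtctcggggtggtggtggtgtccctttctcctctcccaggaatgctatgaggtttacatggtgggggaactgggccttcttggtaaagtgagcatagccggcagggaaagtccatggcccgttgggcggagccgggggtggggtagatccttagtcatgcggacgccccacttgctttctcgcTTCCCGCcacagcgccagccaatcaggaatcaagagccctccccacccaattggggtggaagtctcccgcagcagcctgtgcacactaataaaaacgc

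In these windows the CHR element starts at position 33 after the start in Aurka, 31 in Plk1 and 9 in Hmmr, and at -5 in Prc1 and -14 in Asf1b. The E2F element of Uhrf1 starts at -48 and that of Hmmr at -216. A CHR was found in 24 of 35 promoters of the spindle and cytokinesis list (68.6%) and in 11 of 29 of the centromere list (37.9%), against 18.1% of all 27025 promoters in the table and 11.4% of the 7526 tested genes that have one. An E2F element was found in 24 of 41 promoters of the replication list (58.5%) and in 7 of 15 of the nucleotide synthesis list (46.7%), against 9.69% of all promoters and 18.2% of the tested genes. Of all 298 genes higher in the cycling cells, 239 have a promoter in the table, and 34.7% of these hold a CHR and 36.4% an E2F element. The 157 higher genes in no list had 128 promoters, 27.3% with a CHR and 35.9% with an E2F element. A CHR together with a CCAAT box, the letters CCAAT on either strand, was found in 26.8% of the 239 and in 4.62% of the tested genes. Promoters were found for fewer than 80% of the mitotic kinase, chromosome structure and DNA repair lists and of the lower genes, so no share is read from them. A match of letters is a description and shows no binding.

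Genes of DNA replication were higher too. Of the 50 genes of origin licensing and the replication fork, 41 were tested and 32 were higher, with a median log2 ratio of 1.51 and a highest value of 2.67. On the genes that pass the filter on the other carcinoma cells alone, the medians were 1.47 for this list, 1.77 for the spindle list and 1.95 for the centromere list. Asf1b, a histone chaperone behind the fork, was 6.36-fold higher (4.66 to 8.70), with 88 UMIs in 34.2% of the cycling cells. Uhrf1, which brings DNA methylation to new DNA, was 4.71-fold higher (3.47 to 6.36), Dbf4, the activator of the origin kinase Cdc7, 4.27-fold (3.41 to 5.34), and the primase Prim1 4.07-fold (2.96 to 5.57). Pcna, the sliding clamp, chosen after its values were seen, was at 73.4 CPM in the cycling cells and 45.6 CPM in the other carcinoma cells, a ratio of 1.61 (1.37 to 1.89) and thus under 2-fold. The lowest ratios were those of Slbp, which binds histone mRNA (1.51), and Rfc1, of the clamp loader (1.52). In nucleotide synthesis, thymidine kinase Tk1 was 4.90-fold higher (4.23 to 5.68), Rrm1 4.24-fold, thymidylate synthase Tyms 3.9-fold and the dUTPase Dut 3.02-fold, and 9 of 16 tested genes were higher in all. The purine synthesis enzymes Paics (1.06, 0.932 to 1.20) and Ppat (1.18, 0.904 to 1.52) had the lowest ratios. In DNA repair, 6 of 8 tested genes were higher, or 3 of the 5 that would pass the filter on the other carcinoma cells alone, among them Ube2t of the Fanconi pathway by 6.47-fold and Atad2 by 5.72-fold, and 18 of the 26 genes listed had too few UMIs to be tested.

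The regulators of the decision to enter the cycle differed less where they could be tested. Of 9 tested cyclins and kinases of the G1/S step, 2 were higher, the cyclin gene Ccne1 (2.65, 1.72 to 4.02, on 34 UMIs) and Skp2, of a ubiquitin ligase (2.16, 1.39 to 3.26). Of the 7 genes of this list that would pass the filter on the other carcinoma cells alone 0 were higher, and in the highest quartile of UMIs Skp2 was at 1.66 (0.954 to 2.83). Cdk4 had a ratio of 1.56 (1.46 to 1.66) and its partner Ccnd1 of 1.28 (1.21 to 1.36), Cdk6 was at 103 CPM and 101 CPM, and Ccnd2 had a ratio of 0.639 (0.574 to 0.710). Among the transcription factors, 3 of 9 tested genes were higher, Foxm1, the activator of mitotic genes, by 7.11-fold (4.90 to 10.4), Lin54, the subunit that reads the CHR, by 3.09-fold and E2f4 by 2.03-fold (1.63 to 2.52), the last of which was at 1.86 (1.43 to 2.40) in the highest quartile of UMIs. E2f1 had a ratio of 1.71 (1.13 to 2.52). Of the 14 tested genes of the anaphase-promoting complex and its regulators, only Ube2s, the enzyme that extends its ubiquitin chains, was higher (3.07, 2.90 to 3.26). The 13 other tested genes of the list lay between 0.731 for Anapc13 and 1.74 for Cdc23. Fbxo5, the remaining gene of the 15 listed, had too few UMIs to be tested, with 53 UMIs (19.7 CPM) against 29 UMIs (1.81 CPM).

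The cyclin-dependent kinase inhibitors went both ways. Cdkn2c and Cdkn2d, the INK4 inhibitors p18 and p19, were higher, at 34.9 CPM against 9.89 CPM (ratio 3.53, 2.70 to 4.58) and 63.1 CPM against 18.9 CPM (3.34, 2.75 to 4.04). Cdkn1a, the p53 target p21, was lower, with 242 UMIs (89.8 CPM) against 3276 UMIs (205 CPM), a ratio of 0.438 (0.383 to 0.499). Cdkn1b (1.09, 0.754 to 1.54) and Cdkn1c (0.554, 0.332 to 0.877) stayed within 2-fold. Cdkn2a, which encodes p16 and p19Arf, had a ratio of 1.10 (1.03 to 1.18), which lay on either side of 1 under other settings, and Cdkn2b, p15, of 0.633 (0.533 to 0.747). The p53 targets Btg2 (0.421, 0.371 to 0.476) and Gadd45a (0.332, 0.258 to 0.422) were lower, and Trp53 itself had a ratio of 1.23 (1.08 to 1.40). The median of the 15 tested genes was -0.67 on the log2 scale. With both groups limited to carcinoma cells in the highest quartile of UMIs, Cdkn1a kept a ratio of 0.480 and Cdkn2c of 2.99, but that of Btg2 was 0.502, just inside 2-fold.

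Genes of ribosome assembly, glycolysis and growth signals mostly stayed within 2-fold. In ribosome biogenesis, 3 of 18 tested genes were higher, Nolc1, Rrp9 and Nop58, with ratios of 2.05 to 2.10, beside 3.18% of all genes, and Nolc1 was at 1.87 in the highest quartile of UMIs. Nucleolin (Ncl) had a ratio of 1.96 (1.88 to 2.04). The list median was 0.72 and all 18 ratios were above 1. None of 80 tested ribosomal protein genes passed 2-fold, and their summed level was 273810 CPM against 240571 CPM. Of 13 glycolysis genes 0 were higher and 1 was lower, beside 6.81% of all genes, the glucose transporter Slc2a1 (0.483, 0.370 to 0.620). None of 8 EGF ligands and receptors passed 2-fold, though Erbb3 was at 0.512 (0.389 to 0.662) and Hbegf at 0.603. The immediate early genes, which are induced by growth factors and also by tissue dissociation, had a median of -0.83 with 6 of 14 lower, among them Jun (0.384, 0.350 to 0.421) and Atf3 (0.456, 0.418 to 0.497), beside 6.81% of all genes. In the highest quartile of UMIs 2 of the 14 were lower, and Atf3 was at 0.535. Their summed level was 3353 CPM in the cycling cells and 5945 CPM in the others.

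Among genes in none of the lists and with at least 300 UMIs, the largest ratio was that of 2810417H13Rik, now named Pclaf, a PCNA-binding factor, which had 330 UMIs in 66.3% of the cycling cells and 196 UMIs in 5.73% of the others (ratio 9.98, 8.34 to 12). Knstrn, a kinetochore-associated adaptor, followed with 6.35 (5.07 to 7.96). Others were Dnph1, which removes damaged nucleotides (3.72), the nuclear pore gene Nup37 (3.54), the kinetochore gene Pmf1 (3.31), Cmc2 (3.48), Tmem97 (3.20), the histone chaperone Dnajc9 (2.93), Reep4, which clears membrane from mitotic chromosomes (2.92), and Anp32e (2.85).

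The genes named among the lower ones include secreted proteins of epithelia and markers of other cell types. The lowest ratios outside the lists were those of Igfbp5, a secreted binder of insulin-like growth factors (4 UMIs against 344, ratio 0.0689, 0.0187 to 0.178), and Gng11 (5 against 395, 0.0750). Crct1 followed with 0.0851, but 82.8% of its UMIs in the other carcinoma cells lay in 5 cells. The trefoil peptide Tff3 was at 95.7 CPM against 792 CPM (0.121, 0.106 to 0.137), although it was seen in 36.8% of the cycling cells and 32.2% of the others. Slco2a1, a prostaglandin transporter (0.131), Cyp2j6 (0.137), the complement gene C4b (0.165), Fcgbp (0.178) and the protease Napsa (0.180) were also low. In the highest quartile of UMIs the ratio was 0.156 for Igfbp5, 0.218 for Tff3, 0.399 (0.230 to 0.654) for C4b and 0.405 (0.167 to 0.850) for Fcgbp. Dmbt1 and Sftpd, secreted proteins of mucosal defence, were at 0.298 (0.280 to 0.318) and 0.232 (0.170 to 0.310), and Tff2 at 0.215 (0.187 to 0.246). In the highest quartile Dmbt1 (0.519) and Tff2 (0.679) were within 2-fold and Sftpd was at 0.442. Reg1, Reg3g and Ly6k had ratios of 0.422, 0.442 and 0.288, Inhba of 0.147 (0.108 to 0.196) and Bmp2 of 0.240. Of these, Reg1 (0.823, 0.741 to 0.912) and Reg3g (0.803, 0.702 to 0.917) were within 2-fold in the highest quartile, while Inhba stayed at 0.127. Tff1, the other trefoil peptide of the stomach pit, had a ratio of 1.40 (1.36 to 1.43), with a median of 6 UMIs per cycling cell against 1, and 5 cells held 44.1% of its UMIs in the cycling cells. Vimentin (Vim) had a ratio of 1.40 (1.34 to 1.45), with a median of 9 UMIs per cell against 1. These medians are of deposited UMIs, in cells of unequal depth. In the highest quartile the ratio was 1.25 (1.22 to 1.29) for Tff1 and 1.14 (1.09 to 1.19) for Vim.

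Marker lists of several other cell types, though not all, summed to lower levels in the cycling cells. The red blood cell markers summed to 30.8 CPM against 214 CPM (ratio 0.144, 0.114 to 0.179), the 9 fibroblast markers to 103 CPM against 261 CPM (0.394, 0.348 to 0.445) and the 4 granulocyte markers to 42.3 CPM against 112 CPM (0.379, 0.311 to 0.458). The 6 mesothelial markers went the other way, with 381 CPM against 348 CPM (1.09, 1.02 to 1.17). Msln alone gave 984 of their 1026 UMIs in the cycling cells and 5107 of 5558 in the others. Nkain4 was lower, at 2.60 CPM against 13.3 CPM. The remaining mesothelial markers were also at lower levels, with intervals that overlap. Hba-a2 (0.121) and Mgp (0.166) were among the 15 lowest genes in no list. In the highest quartile of UMIs, the ratio of Col1a1 was 1.52 (0.759 to 2.91) in place of 0.314 and that of Col1a2 was 1.03 in place of 0.301. Col3a1 was at 0.942 (0.669 to 1.30) in this quartile. Other fibroblast markers stayed lower, Dcn at 0.261 (0.189 to 0.353, on 46 UMIs against 535) and Col6a1 at 0.603 (0.393 to 0.897). There the granulocyte markers S100a8 and S100a9 were at 0.832 (0.562 to 1.20) and 1.09 (0.742 to 1.58), and Mgp at 0.299. Hbb-bs and Hba-a1, of the red blood cell list, were at 0.34 and 0.231 there. A UMI of Hbb-bs was seen in 25.9% of the cycling cells and 16.0% of the other carcinoma cells, where 1 cell held 679 of its 2742 UMIs. The part of transcripts from other cells in the lower genes was not tested. Of the 638 lower genes, 601 were in no list, and with both groups in the highest quartile of UMIs 311 of 7220 genes (4.31%) were lower and 178 (2.47%) higher. Within this quartile the medians were 15727 UMIs for the 126 cycling cells and 12760 for the 477 others.

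The cycling carcinoma cells were spread between DNA replication and mitosis. At 2500 UMIs per cell, the 193 cells held a median of 5 UMIs of the replication list (0 to 26) and 7 UMIs of the mitotic genes (0 to 24), which are the mitotic kinases with the spindle genes other than tubulins, Stmn1 and Numa1. The other carcinoma cells held a median of 1 and 1. The cells were ordered by the share of mitotic UMIs in the sum of both and cut into 3 groups, a replication group of 65 cells (share up to 50%), a middle group of 64 and a mitotic group of 64 (72.7% and above). The median depth fell from 15228 UMIs in the replication group to 11206 and 9030.5 in the middle and mitotic groups.

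**Figure D3:**
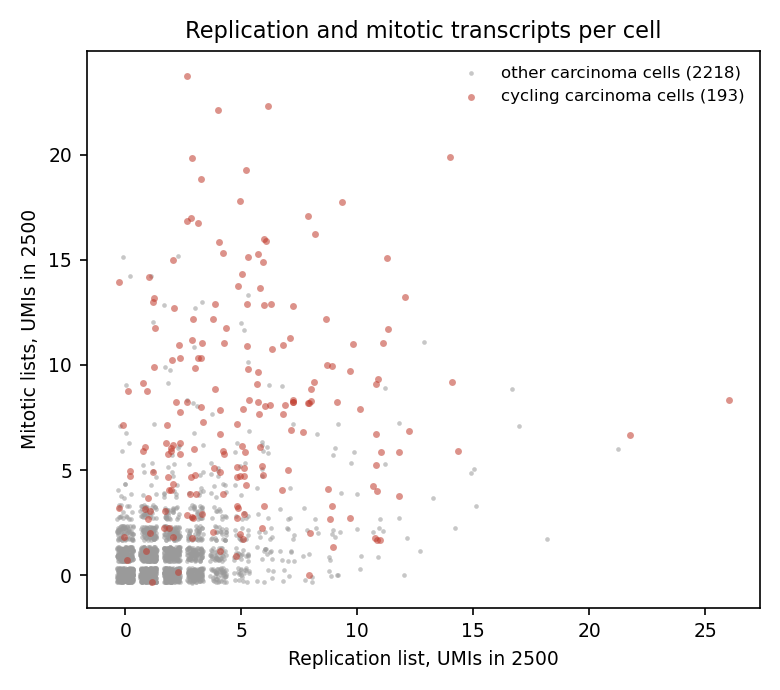
Each point is 1 carcinoma cell thinned to 2500 UMIs, with its UMIs of the replication list (x axis) and of the mitotic genes (y axis), moved at random by up to 0.35 to part cells of equal value. The 193 cycling cells (red, medians 5 and 7) spread along both axes without a gap, and the 2218 other carcinoma cells (grey) gather near 0 with a tail along the replication axis.

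Genes outside the ordering lists differed between the ends too. Cenpe was at 161 CPM in the mitotic group and 47.8 CPM in the replication group, a ratio of 3.37 (2.42 to 4.75). The rule genes Ccnb1 (2.87, 2.12 to 3.91), Cenpf (2.75, 2.19 to 3.46), Cenpa (2.52, 2.09 to 3.04), Cdc20 (2.43, 1.88 to 3.16) and Ube2c (2.01, 1.70 to 2.38) also passed 2-fold at the mitotic end. Rrm2 went the other way, at 157 CPM against 262 CPM (0.598, 0.476 to 0.746), while Cdk1 (1.22, 0.967 to 1.53) and Top2a (1.27, 1.02 to 1.58) stayed within 2-fold and were highest in the middle group. The nucleotide synthesis list was at 1243 CPM in the mitotic group and 1660 CPM in the replication group (0.749, 0.690 to 0.811). Of the INK4 inhibitors that were higher in cycling cells, Cdkn2c had a ratio of 2.13 (1.21 to 3.77) and Cdkn2d of 1.97 (1.34 to 2.91), whereas Cdkn1a was at 0.805 (0.575 to 1.12). The ordering used the same cells and UMIs of genes regulated together, so these values describe it and test nothing.

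**Figure D4:**
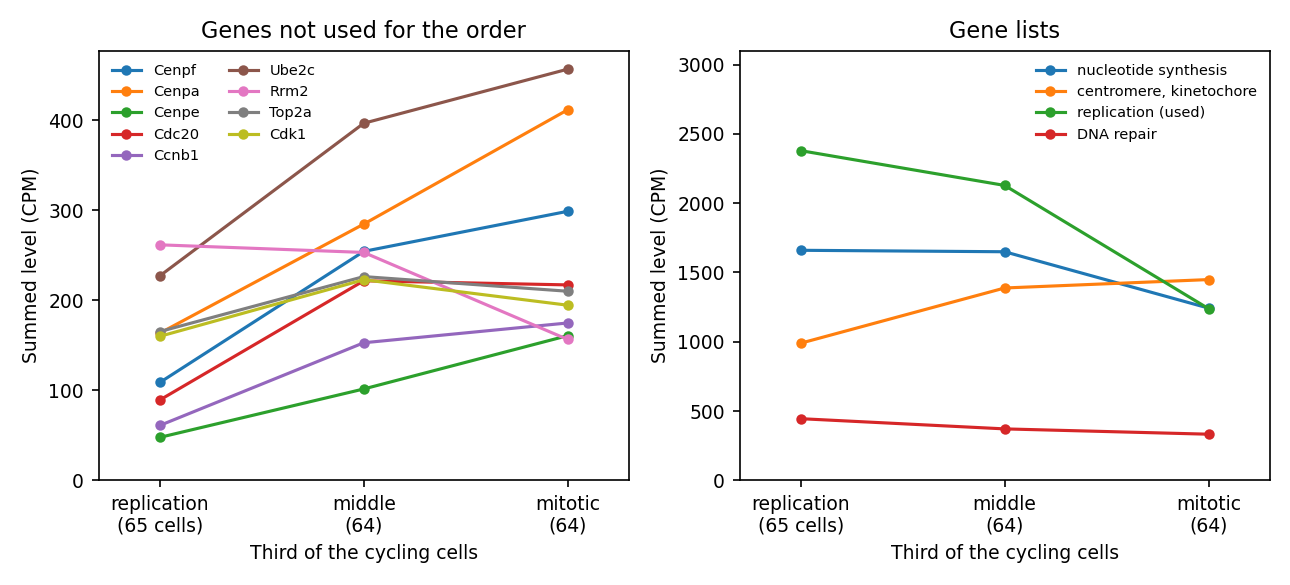
Summed levels (CPM) in the 65 replication, 64 middle and 64 mitotic cells. Left, 9 genes that did not enter the ordering: Cenpe, Cenpf, Cenpa, Ccnb1, Cdc20 and Ube2c are higher in the mitotic than in the replication cells, Rrm2 is lower and Cdk1 and Top2a are highest in the middle. Right, 4 gene lists, of which the replication list was used for the ordering.

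Cells that carried replication transcripts without passing the rule were common. Of the other carcinoma cells, 166 (7.48%) held at least 5 UMIs of the replication list at 2500 UMIs, the median of the cycling cells. Of these, 63 had 3 to 5 rule genes, 23 had 2 and 80 had 0 or 1. They held a median of 2 mitotic UMIs, against 7 in the cycling cells, and their median deposited depth was 6415 UMIs. Mitotic UMIs at or above the median of the cycling cells were found in 36 other carcinoma cells. Most of the rule genes are known as genes of the later part of the cycle, and the 193 cells are not a count of all dividing carcinoma cells.

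Cycling cells were found among carcinoma cells of several states, and depth had to be held fixed to compare them. States were called from 2 or more UMI-bearing genes of short lists, for example the stomach pit genes Gkn1, Gkn2, Gkn3, Tff1, Tff2 and Muc5ac. On the deposited counts 168 of the 193 cycling cells (87%) held the pit state, 99 (51.3%) the state of Hmga2 and Cldn6, genes of fetal tissue, and 38 (19.7%) the state of Reg genes and Ly6k. Of all 2411 carcinoma cells, 1661, 861 and 640 held these states. Within the highest quartile of UMIs, with states called at 2500 UMIs, 76 of 299 cells with pit genes were cycling (25.4%, 20.6% to 30.7%) against 50 of 304 without (16.4%, 12.5% to 21.1%), with intervals that overlap. Of cells with the Hmga2 and Cldn6 state, 8 of 92 were cycling (8.70%, 3.83% to 16.4%) against 118 of 511 without (23.1%, 19.5% to 27.0%), and these intervals do not overlap. For Inhba and Bmp2, a state that also lists Vim, the shares were 14.4% (9.13% to 21.1%) and 23.0% (19.2% to 27.1%), and for Dmbt1 and Sftpd 22.4% and 18.9%, both with overlapping intervals. On the deposited counts the Hmga2 and Cldn6 state showed the opposite order, 11.5% against 6.06%, with median depths of 8482 and 5100.5 UMIs. In the third quartile the shares were 7.69% (3.15% to 15.2%) with and 6.25% (4.31% to 8.71%) without this state, and in the first and second quartiles 0 of 73 and 0 of 91 cells with it were cycling.

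**Figure D5:**
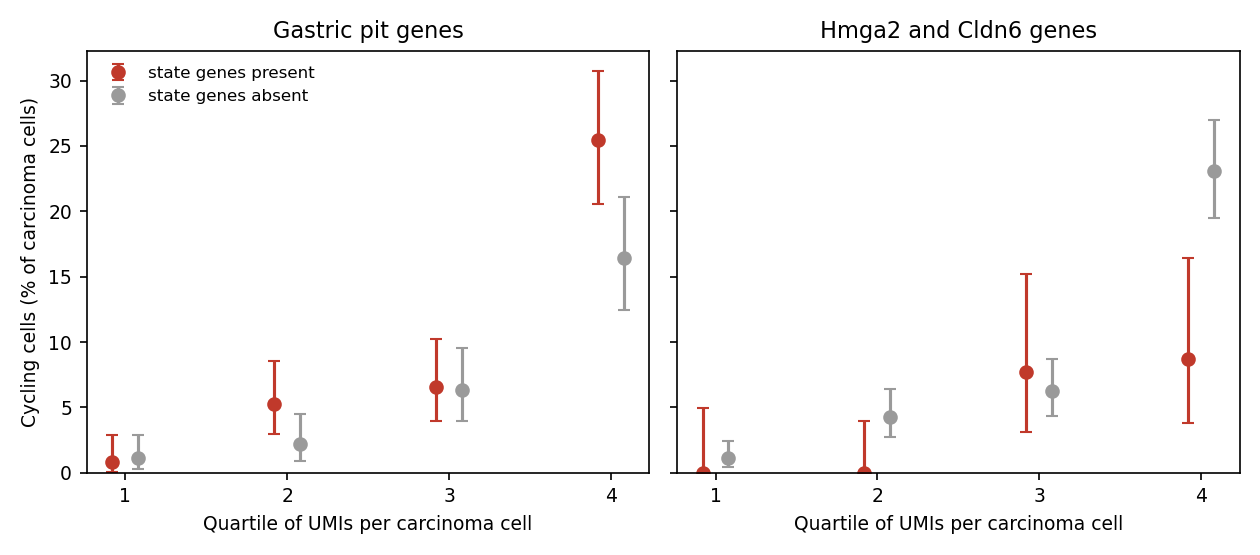
The share of carcinoma cells that were cycling, by quartile of UMIs per cell, for cells with (red) and without (grey) at least 2 genes of the stomach pit list (left) and of the Hmga2 and Cldn6 list (right), called at 2500 UMIs. Bars are exact 95% binomial intervals. In the highest quartile the shares are 25.4% and 16.4% for the pit genes and 8.70% and 23.1% for Hmga2 and Cldn6.

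The genes Yap1, Birc2, Birc3 and Tmem123, neighbours on mouse chromosome 9, were all within 2-fold but above 1 in the cycling cells, with ratios of 1.71, 1.56, 1.73 and 1.91. A few cells gave a large share of these UMIs. At 1000 CPM or more of the 4 genes in sum there were 31 cycling cells (16.1%) and 148 other carcinoma cells (6.67%), and 5 of the 193 cycling cells held 29.7% of their UMIs of these genes. In the highest quartile of UMIs the ratio of Birc2 was 0.993, while those of Yap1 (1.27, 1.16 to 1.40), Birc3 (1.40, 1.15 to 1.71) and Tmem123 (1.44, 1.30 to 1.59) were above 1.

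The large tumor was set beside the medium one at equal depth, to place the cycling cells within the series. It held 1533 barcodes with a median of 1037 UMIs, and 29 of its 497 cells with 4 or more epithelial markers met the same rule. With every cell thinned to 500 UMIs, 2 or more rule genes were seen in 78 of 2812 cells of the medium tumor (2.77%, 2.20% to 3.45%) and in 69 of 1533 cells of the large tumor (4.50%, 3.52% to 5.66%). On the deposited counts the order was the opposite, 20.1% and 14%, at median depths of 5456.5 and 1037 UMIs. Over all cells the 10 rule genes summed to 427 CPM (418 to 436) in the medium and 655 CPM (622 to 690) in the large tumor. Rrm2 went against the sum, with 57.2 CPM (54.0 to 60.6) in the medium and 39.3 CPM (31.5 to 48.4) in the large tumor. Lists were compared on deposited counts, not at equal depth, as ratios of the summed UMIs of a list and not as medians of its genes. In the 29 cells of the large tumor the spindle list was 3.28-fold (2.97 to 3.62) and the replication list 1.70-fold (1.49 to 1.94) above its other epithelial-marker cells, against 3.30-fold (3.22 to 3.38) and 2.57-fold (2.49 to 2.66) in the medium tumor. The median depths of these 2 groups of the large tumor were 4964 and 1742 UMIs. The inhibitor and p53 list had ratios of 0.662 and 0.733 in the large and the medium tumor. Size, animal, depth and cell mix differ together between the tumors and cannot be told apart.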

How the data were processed

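The deposited files are count tables, 1 for each tumor, in which the authors gave UMI counts per gene and cell barcode. Per the labels and the submitters' processing notes, they were made with Cell Ranger (version not given in the sources used here) on mm10, with the 4 technical replicates of a tumor pooled. The tables hold 27775 gene rows and no column was left out. The members and gene lists were chosen with earlier results of these data known.

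Cells were taken by the rule on deposited counts, UMIs were summed per group and scaled to CPM, and 1 UMI was added to each sum for log2 ratios. Genes with at least 100 UMIs over the carcinoma cells were compared and called at 2-fold without a p-value, since each tumor is 1 sample. Intervals are exact (Poisson for sums, Clopper-Pearson for shares, an exact split of UMIs for ratios). Cells were thinned at random to 2500 UMIs, or to 500 to compare tumors. Of 451 list symbols 450 were found. The genes named were the rule genes, up to 4 highest and 2 lowest ratios of each list, all inhibitors, and the 15 highest and 15 lowest ratios outside the lists at 300 UMIs or more. Hmgb2, H2afz, Pcna, Rrm1, Tyms, Dut, Ncl, Trp53, Ccnd1, E2f1, Hbegf and other genes outside this rule were chosen after their values were seen. Some items that the rule would name are not reported here. On simulated counts for the comparison of cycling with other carcinoma cells (200 changed of 9370 genes), 96% of 3-fold and 100% of 5-fold changes were recovered, and 0.0981% of unchanged genes were called. The simulated sums of each group were Poisson draws without differences between cells. These rates therefore cover counting error alone and not genes whose UMIs lie in a few cells. Tools were Python 3.11.15, numpy 2.4.6, scipy 1.17.1, scanpy 1.11.5 (Scrublet) and, for TMM scaling, edgeR 4.0.16 in R 4.3.3. Promoters came from a RefSeq table of GRCm38.p6, and gene positions from an annotation of GRCm38, the assembly that mm10 names.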

Additional observations from a re-analysis of the deposited data

Results flagged for a closer look

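Tff1, the trefoil peptide of stomach pit cells, stood on opposite sides of 1 in the tumors. In the medium tumor its ratio between cycling and other carcinoma cells was 1.40 (1.36 to 1.43), and in the large tumor it was 0.482 (0.391 to 0.589), on 103 UMIs in the cells that met the rule and 1444 in the other epithelial-marker cells. Among the 85 list genes with at least 100 UMIs in both tumors, only Tff1 had opposite ratios with both intervals off 1. In the medium tumor 5 cycling cells held 44.1% of its UMIs. The difference between the tumors was not tested.

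Cell division transcripts were also found outside the carcinoma cells. Of 241 cells with 4 or more macrophage markers and without the epithelial rule, 17 carried 6 or more rule genes (7.05%, 4.16% to 11.1%). In these 17 cells Mki67 was at 256 CPM against 39.6 CPM in the other 224 (ratio 6.47, 3.56 to 11.5) and Cenpe had a ratio of 12.2 (4.83 to 31.5). Ccnb2 had a ratio of 8.05 (4.17 to 15.3). The intervals of Pcna (1.21, 0.374 to 3.06, on 5 UMIs) and Aurka (2.54, 0.0516 to 25.7, on 1 UMI) included 1. The 11 macrophage markers summed to 28554 CPM in the 17 cells and 32226 CPM in the other 224, and the 11 epithelial markers to 305 CPM and 428 CPM. The median depths were 4469 and 3437 UMIs.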

How the results depend on the processing

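No paired analysis was possible because each tumor is 1 count table in which the technical replicates are pooled. The number of cycling carcinoma cells was 254 with at least 5 rule genes, 147 with at least 7, 158 without cells with 4 or more macrophage markers and 35 after thinning to 2500 UMIs, and the share of carcinoma cells was 10.5%, 6.10% and 1.54% for the first, second and last of these. Genes 2-fold higher and lower numbered 166 and 139 with 10 CPM added, 90 and 183 at 500 or more UMIs, 2787 and 1540 for every gene with a UMI, 198 and 371 after thinning, and 178 and 311 with both groups in the highest UMI quartile. At 1.5-fold they numbered 806 and 1733, and at 3-fold 136 and 180. TMM scaling gave 368 and 495 and moved the median of all genes from -0.11 to 0.01, so that 42.6% of called genes were higher, against 31.8% as reported, 54.4% with 10 CPM added and 64.4% for every gene. The share of cycling cells among cells holding a state, on thinned counts, with 3 genes and in the highest quartile, was 1.76%, 12.8% and 25.4% for the pit genes, 0.623%, 15.1% and 8.70% for Hmga2 and Cldn6, and 2.39%, 19.5% and 25.8% for Yap1 to Birc2. On thinned counts and in the highest quartile it was 1.06% and 18.8% for Reg and Ly6k, 1.52% and 22.4% for Dmbt1 and Sftpd, and 0.806% and 14.4% for Inhba and Bmp2. In the large tumor the share of cells was 13.4% with at least 1 rule gene and 1.44% (0.901% to 2.16%) with at least 3 at 500 UMIs, against 10.0% and 1.07% (0.721% to 1.52%) in the medium tumor, intervals that overlap at 3 genes, and 14% on deposited counts, where the medium tumor was higher at 20.1%. The alternatives in the highest UMI quartile and that of 3 rule genes after thinning were chosen after seeing the data. The cause of these moves was not tested, except that thinning and stricter filters leave fewer counts or genes.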

Other observations

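The 25 cells with 6 or more rule genes that did not meet the epithelial rule made up 6.23% (4.07% to 9.07%) of the 401 such cells of the medium tumor. At 2500 UMIs they held a median of 5 replication and 7 mitotic UMIs, the same medians as the cycling carcinoma cells. Mki67 was seen in 52.0% of them, at 221 CPM (145 to 321), and their median depth was 4469 UMIs.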
